A study of Rattus norvegicus with 6 samples.

Results

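The miRNAs described here are those of the imprinted Dlk1-Dio3 cluster, measured by small RNA sequencing in exosomes from rat serum. They were taken by name: of the 427 sequences listed under rat miRNA names, the 40 whose number is one of 44 numbers assigned to the cluster. These 40 come from 34 hairpins and are 40 of 867 listed miRNA sequences in all. Exosomes are vesicles shed by cells, here purified from serum by ultracentrifugation. NXT-Exo (5 libraries, replicates 1 to 5) came from male Sprague-Dawley rats, aged 6 to 8 weeks and fed a normal diet, that received Naoxintong Capsule (NXT), a traditional Chinese medicine, at 1000 mg/kg/d by oral gavage. Ctl-Exo (1 library, replicate 5) came from male rats of the same strain, age and diet given saline at 5 mL/kg/d. The titles give 7 days of dosing for all 6 libraries, whereas by the treatment field it was 7, 8, 9, 10 and 11 days in NXT-Exo 1 to 5, and 11 in Ctl-Exo 5. Each group had 10 rats, and the labels do not say which of them stand behind a library or whether serum was combined.

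miRNAs are short RNAs that are cut from the 2 arms (5p and 3p) of a hairpin and that silence mRNAs, which they recognise chiefly with the seed, bases 2 to 8 counted from the 5′ end. The Dlk1-Dio3 region is imprinted. Its noncoding RNAs, among them Meg3 and many miRNAs, are made from the chromosome inherited from the mother, and its protein-coding genes Dlk1, Rtl1 and Dio3 from the one inherited from the father. These miRNAs are known for their expression in placenta, embryo, brain and growing muscle. A group that includes miR-127, miR-136, miR-433 and miR-434 is made antisense to Rtl1 and acts against its mRNA, while the long array from miR-379 to miR-410 is known from neurons, where miR-134 restrains the growth of dendritic spines.

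All 40 listed sequences were identical to mature miRNAs of RefSeq (GRCr8). There they lie on the plus strand of chromosome 6, between positions 134298094 and 134579828. By the order of genes in that assembly, 12 lie before miR-379 and 28 between miR-379 and miR-410, and the span of Rtl1 holds 5 of the 12 (miR-433-3p, miR-127-3p, both arms of miR-434 and miR-136-3p). miR-770-5p lies within Meg3. GRCr8 is not the build of the submitters' processing notes (Rnor_6.0), so these positions hold for the RefSeq match alone. The 6 most abundant members are shown first because they carry most of the signal, followed by both arms of miR-434 and miR-382, which the arm comparison turns on. The letters are DNA as deposited, 5′ to 3′, with the seed in capitals.
miR-127-3p: tCGGATCCgtctgagcttggct
miR-434-3p: tTTGAACCatcactcgactcct
miR-409a-3p: aATGTTGCtcggtgaacccc
miR-494-3p: tGAAACATacacgggaaacctct
miR-136-3p: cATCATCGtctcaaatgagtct
miR-134-5p: tGTGACTGgttgaccagagggg
miR-434-5p: aGCTCGACtcatggtttgaacca
miR-382-5p: gAAGTTGTtcgtggtggattcg
miR-382-3p: aATCATTCacggacaacactt
In RefSeq, miR-127-3p is at chr6:134328510-134328531, miR-434-5p at chr6:134330413-134330435, miR-434-3p at chr6:134330451-134330472, miR-136-3p at chr6:134331383-134331404 and miR-494-3p at chr6:134550163-134550185. Farther along are miR-382-5p at chr6:134569956-134569977, miR-382-3p at chr6:134569992-134570012, miR-134-5p at chr6:134570320-134570341 and miR-409a-3p at chr6:134579231-134579250.

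Although these miRNAs share a locus, they hardly share seeds. The 40 sequences hold 39 different seeds, and the 1 seed held in common is that of miR-381-3p and miR-539-3p (ATACAAG). Outside the cluster, the 1 rat-named sequence with a member's seed was miR-362-3p, which shares it with miR-329-3p. A short word recurred instead, in 10 members of the array from miR-379 on and in miR-493-5p before it, and 9 of the 11 are 3p arms. ACANGG, where N is any base, was found in 11 of 40 members (27.5%) and in 7 of the 387 other rat-named sequences (1.81%), or 4.22% of all 427. It was sought after the sequences had been seen. Its complement on the opposite strand, CCNTGT, was found in 0 members and in 9 of the 387 others. The word is shown in capitals in 6 of the 11 members, to show that its place in the miRNA is much the same. It began at base 7 in 6 of the 11, at base 4 in 3, at base 5 in miR-493-5p and at base 9 in miR-494-3p, so it overlaps the seed in part in each of the 11 but miR-494-3p.
miR-485-3p: catACACGGctctcctctcttc
miR-323-3p: cacattACACGGtcgacctct
miR-411-3p: tatgtaACACGGtccactaa
miR-496-3p: agtattACATGGccaatctcc
miR-369-3p: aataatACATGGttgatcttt
miR-494-3p: tgaaacatACACGGgaaacctct
GC content (median 47.7%) and length (median 22 bases) of the members were close to those of the other rat-named sequences (47.8% and 22 bases).

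The listed reads summed to 1168686 to 3781718 per NXT-Exo library and to 1890463 in Ctl-Exo 5. Levels are CPM, counts per library size, corrected by TMM factors from edgeR (0.932 to 1.09). They were not divided by length, since the members are all 18 to 25 bases long. One read was worth 0.261 to 0.782 CPM, and 3 reads, taken as the floor of detection, were 1.63 CPM in Ctl-Exo 5. Intervals and floors cover counting error only. Markers of several kinds of cell had reads in all 6 libraries. Among them were miR-486 of red blood cells (155726 to 257143 CPM) and miR-128-3p of the brain list (27132 to 45978 CPM). Others were miR-142-5p of white blood cells and platelets (16347 to 20887 CPM), miR-122-5p of liver (2195 to 17384 CPM) and miR-126a-3p of endothelium (810 to 1032 CPM). miR-128-3p does not stand for its list, because the brain markers other than miR-128 reached a sum of at most 56.3 CPM in any library. Among these markers, miR-124-3p was at 5.33 to 24.2 CPM over the 6 libraries. The titles name no cell of origin. Columns named for Ctl-Exo 1 to 4 match no sample analysed here and were not used. With 1 Ctl-Exo library, that group has no spread of its own, and the tests below assume that it varies like NXT-Exo. Where nothing says that the NXT-Exo libraries came from separate rats, their spread may be partly technical.

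The cluster was a minor component of the exosomal miRNAs. Its 40 members held 5892 of the listed reads over the 6 libraries, or 0.0378%. In NXT-Exo 1 to 5 the share was 0.0355%, 0.0327%, 0.0354%, 0.0430% and 0.0492%. In Ctl-Exo 5 it was 0.0277% (95% Wilson interval 0.0254% to 0.0302%), below all 5 NXT-Exo libraries and outside their intervals, the lowest of which began at 0.0309%. The mean of NXT-Exo was 0.0392% ± 0.0068 (SD, n = 5). In scaled levels the sum was 344, 339, 379.5, 393 and 485.6 CPM in NXT-Exo 1 to 5 and 285 CPM in Ctl-Exo 5. The NXT-Exo mean of 388 ± 59.0 CPM (SD, n = 5) was 1.36 times Ctl-Exo 5, and 1.28 times without NXT-Exo 5. No test was made of this sum, since 5 libraries against 1 cannot give an exact two-sided permutation p below 0.333.

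**Figure D1:**
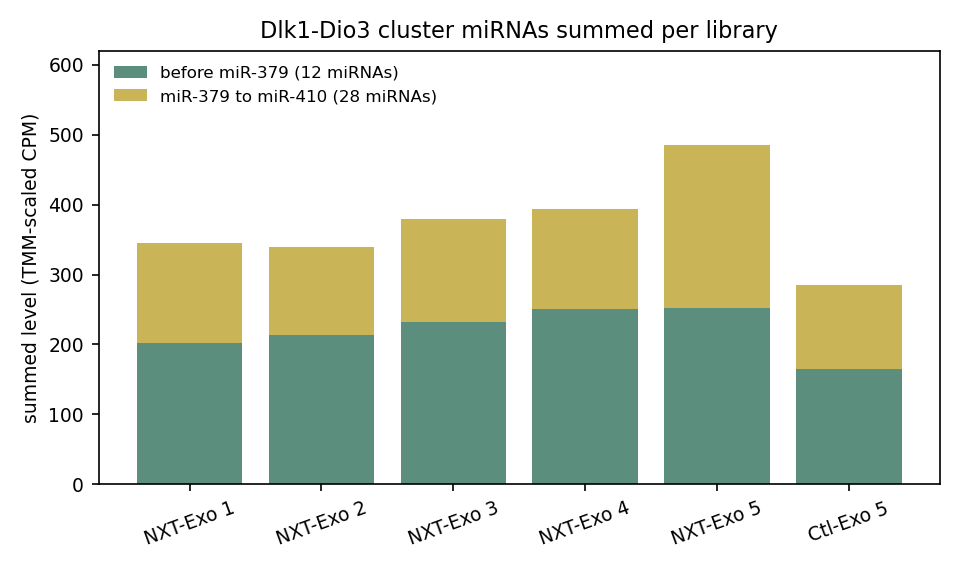
Summed level (TMM-scaled CPM) of the cluster miRNAs in each library, as stacked bars for the 12 miRNAs before miR-379 and the 28 from miR-379 to miR-410. Ctl-Exo 5 has the lowest bar (285 CPM) and NXT-Exo 5 the highest (485.6 CPM), where the upper segment stands out (233 CPM).

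The signal was concentrated in a few members. miR-127-3p led in every library and held 22.4% to 40.4% of the cluster's reads in NXT-Exo against 34.5% in Ctl-Exo 5. The 6 leading members together held 67.6% to 78.4% in NXT-Exo against 73.9% in Ctl-Exo 5. The 5 members within Rtl1 alone held 53.6% of all cluster reads. At the other end, 23 of the 40 members had a mean below 10 reads, 13 had 0 reads in Ctl-Exo 5 and another 5 had 1 to 3. Reads were present in all 6 libraries for 23 members. The rarest was miR-495, with 1 read in NXT-Exo 5 and 0 elsewhere.

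3p arms dominated, with 25 members and 82.6% of the cluster's reads, against 11 members and 14.6% for 5p arms. Another 4 members carry no arm in their name. RefSeq holds 88 mature miRNAs under the 44 numbers, of which 40 were listed. Of the 44 numbers, 34 had a listed member. Among the sequences listed without the rat prefix, which are not counted as members, 3 share a member's seed and leading bases and end differently at the 3′ end, namely miR-127-y (169 reads in the 6 libraries), miR-134-x (42) and miR-381-y (116). The last holds all 18 bases of miR-381-3p and runs on, and it was nearly as frequent.
miR-381-3p: tATACAAGggcaagctct
miR-381-y: tATACAAGggcaagctctctgt
The sum of both forms of miR-381 was 14.6 ± 5.74 CPM (SD, n = 5) for NXT-Exo against 13.6 CPM for Ctl-Exo 5. The values of miR-381-3p alone therefore describe only the shorter form. For miR-127 the sum with miR-127-y was 141.4 ± 17.8 CPM (SD, n = 5) for NXT-Exo against 102 CPM for Ctl-Exo 5. miR-127-y by itself had 27, 43, 26, 13 and 54 reads in NXT-Exo 1 to 5 and 6 in Ctl-Exo 5. Its log2 difference in edgeR's quasi-likelihood test was 1.82 ± 0.67 (SE), with an unadjusted p of 0.0189 and an adjusted p of 0.697.

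**Figure D2:**
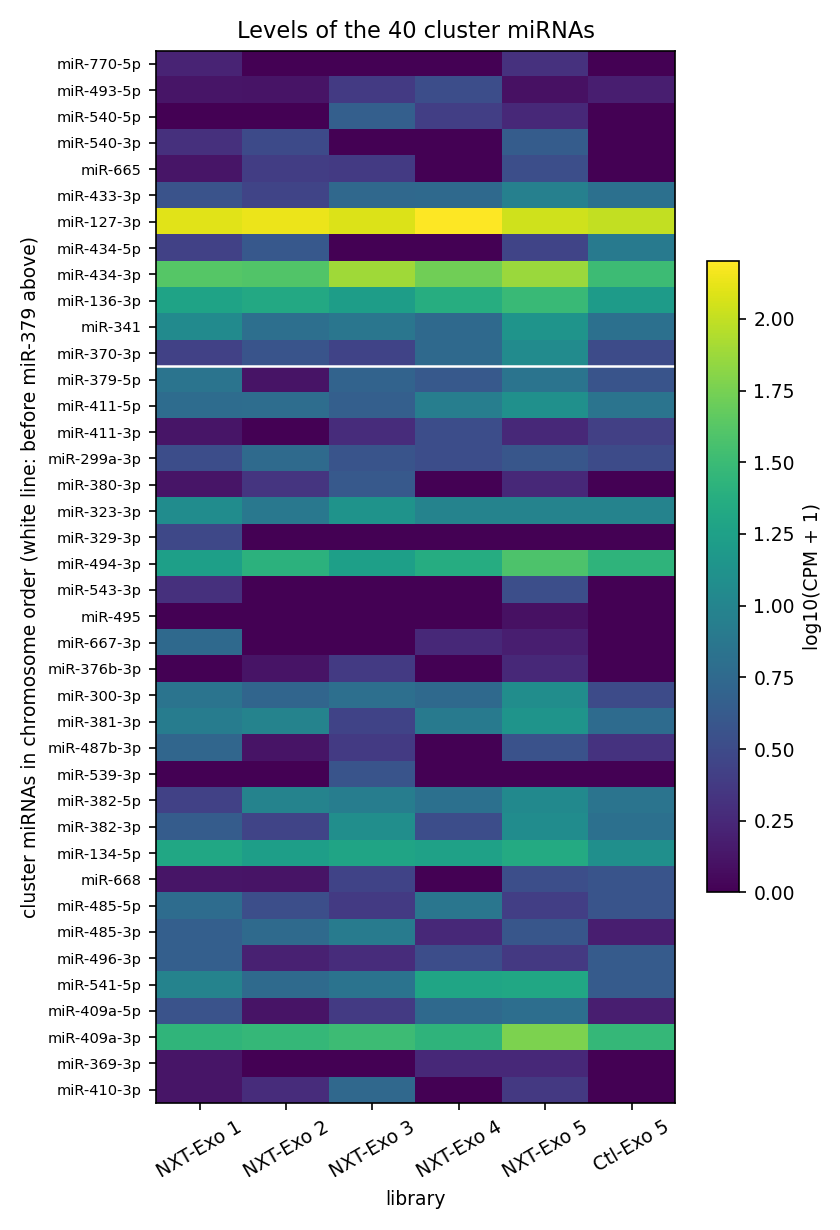
Level of each of the 40 members (rows, in chromosome order, log10(CPM + 1) as colour) in the 6 libraries (columns), with a white line between the members before miR-379 and those from miR-379 on. miR-127-3p, miR-434-3p and miR-409a-3p form the brightest rows, and 13 members are at 0 in Ctl-Exo 5.

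The experiment asked which exosomal miRNAs NXT changes. Of the 40 members, 17 had a mean of at least 10 reads over the 6 libraries and were tested. None of the 17 passed an adjusted p of 0.05 in edgeR's quasi-likelihood test over all 467 miRNAs of that depth, and none did at an unadjusted p under 0.05. Over all 467, 0 passed the adjusted threshold (0%) and 24 had an unadjusted p under 0.05 (5.14%). DESeq2 called 0 as well, with 0 members and 29 of 467 miRNAs (6.21%) at an unadjusted p under 0.05. The smallest adjusted p among the members was 0.740 (miR-434-3p). No difference was thus detected for a member, which does not show that the groups are alike.

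The direction was mostly toward NXT-Exo. In the edgeR fit 15 of the 17 members had a higher level in NXT-Exo, with a median log2 difference of 0.49, where 54.2% of all 467 miRNAs did, with a median of 0.04. Without NXT-Exo 5 it was 9 of the 14 members that then had the depth, with a median of 0.32. The share over all miRNAs was then 51.8% of 454, with a median of 0.02. For 6 of the 17 members the level in Ctl-Exo 5 was under that of every NXT-Exo library, against 21.6% of the 467. It was over that of every NXT-Exo library for 0 of the 17, against 15.8%. With NXT-Exo 5 left out, the level in Ctl-Exo 5 was under that of every remaining NXT-Exo library for 6 of the 17, against 23.1% of the 467. It was over that of every remaining NXT-Exo library for 2 of the 17. The share over the 467 was not taken for this last count, so it has no background to be read against.

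With all 5 NXT-Exo libraries, the 6 members under every one of them in Ctl-Exo 5 were miR-127-3p, miR-434-3p, miR-136-3p, miR-134-5p, miR-541-5p and miR-300-3p. miR-127-3p, the leading member and a known antisense regulator of Rtl1, was 125, 137.04, 120, 158 and 109 CPM in NXT-Exo 1 to 5 and 98.6 CPM in Ctl-Exo 5 (95% Wilson interval 85.2 to 114). Ctl-Exo 5 was lowest, although its interval includes NXT-Exo 5. The mean of NXT-Exo was 130 ± 18.7 CPM (SD, n = 5), and the log2 difference was 0.39 ± 0.26 (SE, edgeR quasi-likelihood adjusted p = 0.784).

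miR-434-3p, from the neighbouring hairpin, was 41.0, 39.2, 76.9, 51.6 and 72.5 CPM in NXT-Exo 1 to 5 and 31.0 CPM in Ctl-Exo 5. NXT-Exo 3 and 5 were high, and the lowest NXT-Exo library was still above Ctl-Exo 5. Its log2 difference of 0.86 ± 0.44 (SE) had an edgeR adjusted p of 0.740. miR-136-3p, the last hairpin of this group, was 18.0, 20.5, 15.7, 22.7 and 30.3 CPM in NXT-Exo 1 to 5 and 15.2 CPM in Ctl-Exo 5. The distance between Ctl-Exo 5 and NXT-Exo 3 was under 1 CPM, a small separation (log2 difference 0.49 ± 0.47 SE, edgeR adjusted p = 0.873).

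miR-134-5p, known from neuronal dendrites, had the smallest spread of the leading members, with 19.3, 16.3, 18.4, 17.2 and 21.1 CPM in NXT-Exo 1 to 5. Ctl-Exo 5 was at 11.4 CPM (95% Wilson interval 7.48 to 17.5). Each NXT-Exo library was higher, and NXT-Exo 2 and 4 lay within this interval. The log2 difference was 0.69 ± 0.45 (SE, edgeR adjusted p = 0.784). With the longer miR-134-x added, the level was 21.2 ± 2.19 CPM (SD, n = 5) against 12.5 CPM.

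The largest differences in favour of NXT-Exo were those of miR-541-5p, miR-300-3p and miR-370-3p, which have few reads. miR-541-5p was 8.67, 4.82, 5.84, 18.8 and 19.3 CPM in NXT-Exo 1 to 5 and 3.27 CPM in Ctl-Exo 5, from 6 reads. NXT-Exo 4 and 5 stood above the other NXT-Exo libraries (log2 difference 1.78 ± 0.98 SE, edgeR adjusted p = 0.742). miR-300-3p was 6.00, 4.22, 5.40, 4.69 and 11.0 CPM in NXT-Exo against 2.18 CPM in Ctl-Exo 5, from 4 reads (1.53 ± 0.95 SE, adjusted p = 0.760). Here NXT-Exo 5 was high and the other 4 were close together. For miR-370-3p the groups overlapped, with 1.67, 2.71, 1.80, 4.69 and 10.4 CPM in NXT-Exo against 2.18 CPM in Ctl-Exo 5 (0.99 ± 1.29 SE, adjusted p = 0.918). Its place among the largest differences rests on NXT-Exo 5, since the mean of NXT-Exo was 1.96 times Ctl-Exo 5 with that library and 1.25 times without it.

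At the other end were miR-433-3p, miR-494-3p and miR-323-3p. miR-433-3p, from the Rtl1 group, was 2.67, 1.81, 4.496, 4.69 and 8.09 CPM in NXT-Exo against 5.44 CPM in Ctl-Exo 5 (log2 difference -0.32 ± 0.93 SE, edgeR adjusted p = 0.971). miR-494-3p was 16.3, 25.0, 16.6, 21.9 and 37.8 CPM in NXT-Exo against 26.1 CPM in Ctl-Exo 5 (-0.14 ± 0.49 SE, adjusted p = 0.971). In both, NXT-Exo 5 was the one NXT-Exo library above Ctl-Exo 5. miR-323-3p, at 10.7, 6.63, 12.6, 8.60 and 8.61 CPM against 8.71 CPM, had libraries on both sides (0.11 ± 0.60 SE, adjusted p = 0.971).

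The remaining tested members overlapped between the groups as well. miR-341 was 10.3, 5.42, 6.29, 4.69 and 12.8 CPM in NXT-Exo 1 to 5, with Ctl-Exo 5 at 5.44 CPM. miR-381-3p was 7.33, 8.73, 1.80, 7.04 and 12.8 CPM, with Ctl-Exo 5 at 4.90 CPM. In both, NXT-Exo 5 was high, and low NXT-Exo libraries fell under Ctl-Exo 5. miR-411-5p was 5.00, 5.12, 3.597, 7.82 and 11.7 CPM, with Ctl-Exo 5 at 5.99 CPM. miR-379-5p, the first hairpin of the long array, was 6.00, 0.301, 4.05, 3.13 and 6.00 CPM, with Ctl-Exo 5 at 2.72 CPM and a single read in NXT-Exo 2. Neighbouring hairpins thus did not follow the same order of libraries, since miR-411-5p lies next to miR-379-5p on the chromosome and was not low in NXT-Exo 2.

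**Figure D3:**
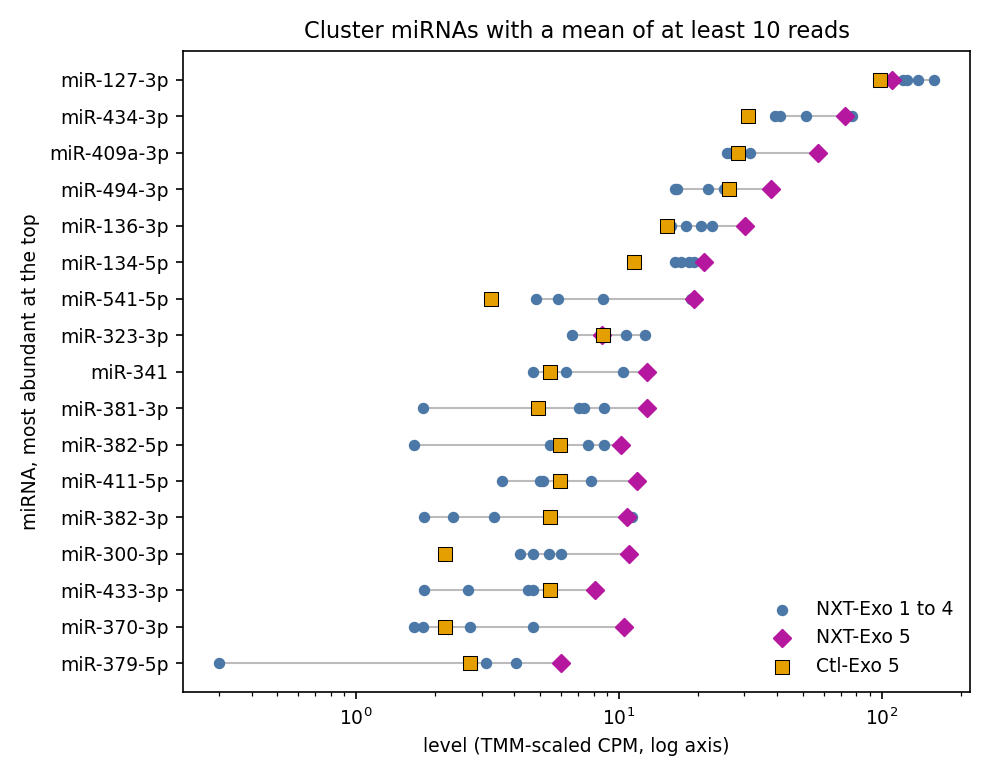
Level (TMM-scaled CPM, log axis) of the 17 members with a mean of at least 10 reads, with 1 point per library and a grey line over the NXT-Exo range. Ctl-Exo 5 (squares) lies left of every NXT-Exo point for 6 members, and NXT-Exo 5 (diamonds) is the rightmost point for 12.

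A fold of at least 2 or at most 0.5 is the size of change on which the study screened, beside its p-values. On the log2(CPM + 1) scale, 4 of the 40 members were this far apart with Ctl-Exo 5 outside the NXT-Exo range, against 11.4% of the 865 miRNAs with a read, so the members' count is near the background. miR-541-5p, miR-300-3p and miR-485-3p were higher in NXT-Exo and miR-434-5p was lower. Over all 865, 5.32% were higher by this rule and 6.13% lower. miR-485-3p was 3.67, 4.82, 7.19, 0.782 and 2.87 CPM in NXT-Exo 1 to 5. In Ctl-Exo 5 it was 0.544 CPM, a single read, and NXT-Exo 4 had a single read too, so the groups barely separate. Its partner miR-485-5p overlapped between the groups, with 3.32 ± 2.19 CPM (SD, n = 5) against 2.72 CPM.

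miR-382-5p, which the study carries into functional assays, was 1.67, 8.73, 7.64, 5.47 and 10.2 CPM in NXT-Exo 1 to 5 and 5.99 CPM in Ctl-Exo 5. NXT-Exo 2, 3 and 5 were above and NXT-Exo 1 and 4 below (log2 difference 0.19 ± 0.89 SE, edgeR adjusted p = 0.971). Its partner miR-382-3p was 3.33, 1.81, 11.2, 2.35 and 10.7 CPM in NXT-Exo against 5.44 CPM in Ctl-Exo 5 (0.14 ± 1.05 SE, adjusted p = 0.977). Neither arm separated the groups, and the sign of both turned without NXT-Exo 5 (-0.024 and -0.22). The arms did not move together, since NXT-Exo 2 was high for miR-382-5p and the lowest library for miR-382-3p.

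Both arms were listed for 6 hairpins, which allows a comparison within each library that does not depend on scaling. Among these, miR-434 was the hairpin whose arm shares separated Ctl-Exo 5 from NXT-Exo. Hairpins outside the cluster were not counted in this way, so the separation is not shown to be particular to miR-434. The 5p arm had 5, 10, 0, 0 and 7 reads in NXT-Exo 1 to 5, which were 3.91%, 7.14%, 0%, 0% and 2.46% of the hairpin's reads. In Ctl-Exo 5 it had 13 of 70 reads, or 18.6% (95% Wilson interval 11.2% to 29.2%). The 0 reads allow a share of up to 2.20% in NXT-Exo 3 and 5.50% in NXT-Exo 4 (Wilson upper bounds). The highest upper bound of an NXT-Exo library, 12.6% in NXT-Exo 2, reached into the interval of Ctl-Exo 5. In levels, miR-434-5p was 1.67, 3.01, 0, 0 and 1.83 CPM in NXT-Exo against 7.08 CPM in Ctl-Exo 5, whereas miR-434-3p was lowest in Ctl-Exo 5. The opposite directions of the arms are thus a feature of 1 Ctl-Exo library and 13 reads, and miR-434-5p, with a mean of 5.83 reads, was not among the miRNAs tested.

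In the other hairpins with reads in Ctl-Exo 5 the shares of the groups overlapped. The 3p arm prevailed in miR-409a, with a 5p share of 7.62% ± 5.44 (SD, n = 5) in NXT-Exo against 1.89% in Ctl-Exo 5, and the 5p arm in miR-411, with 88.9% ± 9.91 (SD, n = 5) and 78.6%. miR-382 used both arms, with a 5p share of 33.3%, 82.9%, 40.5%, 70.0% and 48.8% in NXT-Exo 1 to 5 and 52.4% in Ctl-Exo 5. Its share thus ranged more widely among NXT-Exo libraries than it differed between the groups. miR-485 varied likewise, from 15.8% to 88.9% in NXT-Exo, with 83.3% in Ctl-Exo 5 from 6 reads. miR-540 had 36 reads in NXT-Exo, whereas Ctl-Exo 5 had 0, so its share could not be compared.

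**Figure D4:**
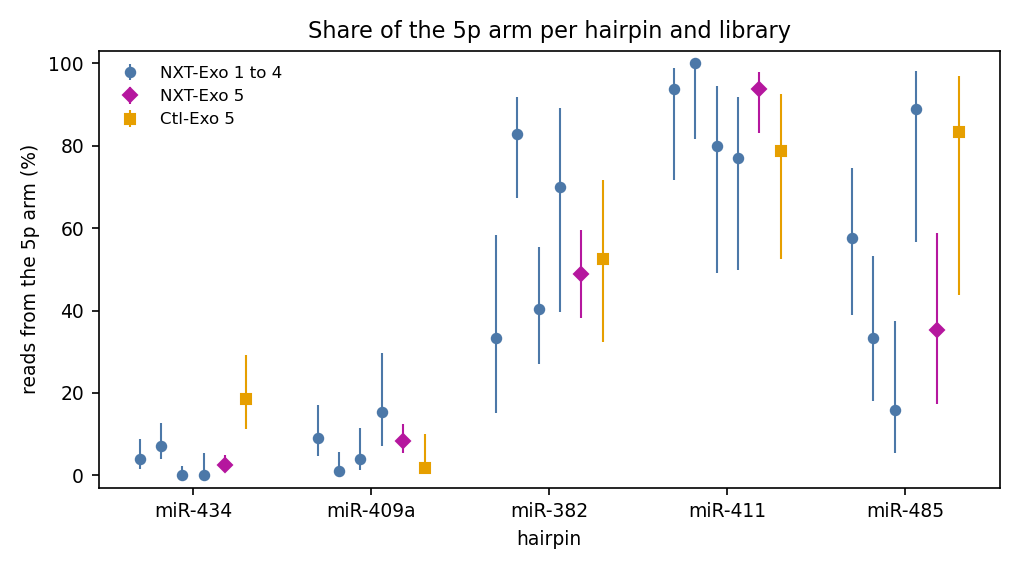
Percent of a hairpin's reads from the 5p arm in each library for the 5 hairpins with a mean of at least 10 reads, with 95% Wilson intervals as bars. For miR-434 the Ctl-Exo 5 point (18.6%) is above the NXT-Exo points (0% to 7.14%), and for the other 4 hairpins it falls within the NXT-Exo range.

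NXT-Exo 5 stood apart from the other libraries in the cluster. This was noticed in the values and is given as a description. It was the highest of the 6 libraries for 12 of the 17 members, against 15.8% of the 467 miRNAs. Because the reads of NXT-Exo 5 helped members to reach the depth for testing, the count was repeated with the depth taken from the other 5 libraries. It was then 10 of 14 members, against 14.3% of 454 miRNAs. These 14 were 0.87 higher in NXT-Exo 5 than the mean of NXT-Exo 1 to 4 (median log2 difference), and all 454 were -0.02.

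The excess was seen on both sides of miR-379 but not in every member. Of the 14 members with the depth in the other 5 libraries, 12 were above the mean of NXT-Exo 1 to 4, against 46.5% of 454. The exceptions were miR-127-3p and miR-323-3p (0.895 times that mean). Members with fewer reads lay on both sides of it. The summed level of the 28 members of the array was 141.7, 125.6, 148, 143 and 233 CPM in NXT-Exo 1 to 5 and 120 CPM in Ctl-Exo 5. NXT-Exo 5 was 1.67 times the mean of NXT-Exo 1 to 4, which were close together (140 ± 9.69 CPM, SD, n = 4). For the 12 members before miR-379 the sum was 203, 214, 232, 250 and 253 CPM and 166 CPM in Ctl-Exo 5, and NXT-Exo 5 was 1.13 times the mean of the others. This smaller ratio rests on miR-127-3p, the largest part of that sum. Without miR-127-3p these members summed to 77.7, 76.5, 111.5, 92.2 and 143.7 CPM, with Ctl-Exo 5 at 67.0 CPM, and NXT-Exo 5 was 1.61 times the mean of the others. That member was left out after its low level in NXT-Exo 5 was seen, so the ratio had to rise. For the 5 members within Rtl1, miR-127-3p included, NXT-Exo 5 was 1.05 times the mean of the others. miR-409a-3p was 26.3, 28.01, 31.5 and 25.8 CPM in NXT-Exo 1 to 4, 57.4 CPM in NXT-Exo 5 but 28.3 CPM in Ctl-Exo 5. Without NXT-Exo 5 its log2 difference from Ctl-Exo 5 was -0.019, from 0.27 with it. It was 2.06 times the mean of NXT-Exo 1 to 4 in NXT-Exo 5, and miR-411-5p was 2.18 times. The leading member, miR-127-3p, went the other way, with its lowest NXT-Exo level in NXT-Exo 5 (0.808 times the mean of the others).

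**Figure D5:**
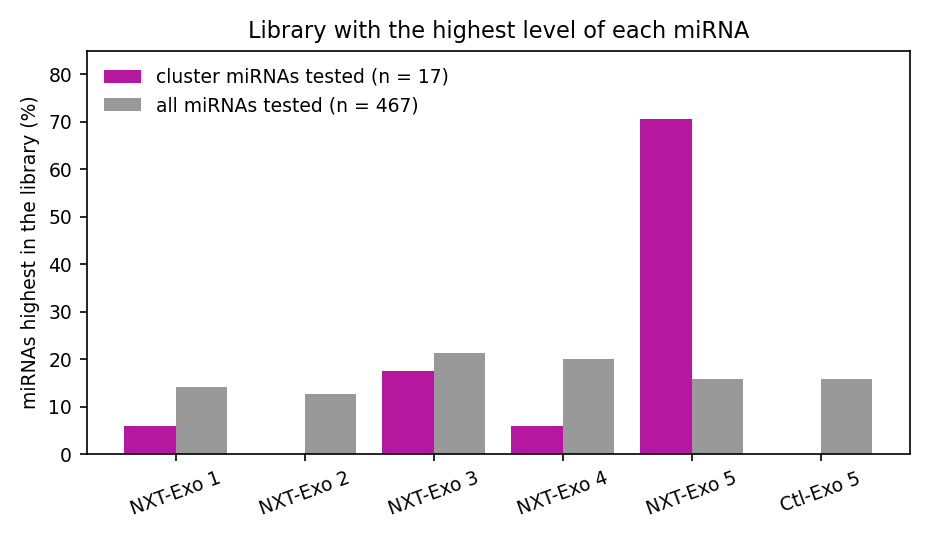
Percent of miRNAs whose highest level falls in each library, for the 17 cluster miRNAs tested and all 467 miRNAs tested. NXT-Exo 5 holds 70.6% of the cluster miRNAs and 15.8% of all.

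Lists of miRNAs from tissues and cells that feed serum were set beside this. In summed level, NXT-Exo 5 relative to the mean of NXT-Exo 1 to 4 was 1.01 for red blood cells, 0.947 for platelets and white blood cells, 0.885 for liver, 1.05 for skeletal and heart muscle, 1.02 for endothelium and 1.03 for epithelium. The brain list, whose sum is almost entirely miR-128-3p, was 0.998, and 0.889 without miR-128, at 29.7 to 56.3 CPM over NXT-Exo against 43.0 CPM for Ctl-Exo 5. Its defining member miR-124-3p was 5.33, 9.94, 9.89, 24.2 and 5.74 CPM in NXT-Exo 1 to 5. Of the 6 tested members of the brain list, 2 were highest in NXT-Exo 5, against 15.8% of all 467 miRNAs tested. These were miR-9a-5p (9.00, 10.8, 4.95, 15.63 and 15.65 CPM in NXT-Exo 1 to 5) and miR-128-1-5p (3.67, 3.01, 4.05, 0.782 and 5.74 CPM). In none of these lists was NXT-Exo 5 as far from the mean of the others, as a ratio, as in the array. Between the groups, liver was the list farthest apart, at 10896 to 24383 CPM for NXT-Exo against 7600 CPM for Ctl-Exo 5, and its 3 tested members were higher in NXT-Exo with 0 called. The red blood cell list overlapped (157726 to 260276 CPM and 210422 CPM), and platelets and white blood cells were lower in NXT-Exo (26294 to 29566 CPM and 32199 CPM), with 0 of 10 tested members called. The sums of muscle (193 to 258 CPM and 180 CPM) and epithelium (272 to 396 CPM and 260 CPM) were slightly higher in all 5 NXT-Exo libraries, also with 0 called. In the edgeR fit 4 of 6 tested muscle members and 5 of 6 tested epithelium members were higher in NXT-Exo, where 54.2% of all 467 miRNAs were. Muscle's miR-1-3p and miR-499-5p were lower (log2 differences -0.75 and -1.18), as was epithelium's miR-429 (-0.45). At an unadjusted p under 0.05 edgeR had 1 tested member each of the red blood cell and epithelium lists and 0 of the others. The liver sum was led by miR-122-5p, the main miRNA of hepatocytes, which was 17384 CPM in NXT-Exo 1 but 3294 to 6430 CPM in NXT-Exo 2 to 5. The part of these lists in the cluster's levels was not tested.

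A comparison list held miRNAs of other imprinted genes. Of these, miR-298-5p, miR-335 and miR-296-3p were tested, with 0 called, and edgeR log2 differences of 0.16, -0.17 and 0.06. The summed level of the 7 listed sequences of this kind was 83.2 to 111 CPM over NXT-Exo against 95.3 CPM for Ctl-Exo 5, so the groups overlapped. NXT-Exo 5, at 101 CPM, was 1.03 times the mean of the others. miR-335 comes from the Mest gene, miR-296 and miR-298 from the Gnas locus and miR-483 from Igf2. miR-675 of H19 is not among the listed sequences analysed here.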

How the data were processed

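The authors made small RNA libraries (TruSeq) from total RNA of serum exosomes, sequenced them on an Illumina HiSeq instrument, removed adapter dimers, low-complexity reads, repeats and other RNA families with ACGT101-miR, and deposited, for each miRNA, the raw count in each library. The submitters' processing notes name the build Rnor_6.0. The aligner and the miRNA database release are not given in the sources used here. The deposited TPM columns were not used, and 8 columns named for Ctl-Exo 1 to 4 (counts and TPM), which match no sample analysed here, were left out, so 1 Ctl-Exo library remained.

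The lone Ctl-Exo library is assumed to vary like NXT-Exo. Counts were scaled with TMM factors (edgeR 4.0.16, R 4.3.3) over the 865 sequences with a read. The 467 miRNAs averaging 10 or more reads over the 6 libraries were tested with edgeR's quasi-likelihood test, NXT-Exo against Ctl-Exo 5, with Benjamini-Hochberg adjustment over all 467. The SE is the size of the log2 difference divided by the square root of the F statistic. DESeq2 1.42.0 was an alternative. Descriptive differences used log2(CPM + 1). Wilson 95% intervals and summaries were calculated in Python 3.11.15 (numpy 2.4.6, pandas 2.3.3, scipy 1.17.1), and plots drawn with matplotlib 3.10.9. The test was tested on simulated data. All pairs of libraries differed by more than counting noise (lowest chi-square per degree of freedom 38.1).

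The members and lists were chosen with earlier results of these data known. miRNAs are named if among the 20 members with the highest mean, if past the threshold, if among the 3 largest log2 differences in each direction of those tested, if an arm of miR-382 or miR-434, or if part of a count of 5 or fewer. The alternatives were other library factors, no filter, other pseudocounts, the median of NXT-Exo, no condition on the range and leaving out each NXT-Exo library. The comparison of NXT-Exo 5 with the other libraries, the counts by direction and range, and their alternatives were chosen after seeing the data.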

Additional observations from a re-analysis of the deposited data

Results flagged for a closer look

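Among 23 sets of 5 NXT-Exo values screened (21 named members, the summed level and the cluster's share of reads), 3 held 1 library well separated from the rest. For 5 normally distributed values such a gap appears by chance in roughly 1 in 20, a rate not checked for CPM values from few reads. miR-409a-3p was 57.4 CPM in NXT-Exo 5 against 31.5 CPM in the next library, a gap of 0.820 of the range (critical value 0.71 for 5 libraries). miR-300-3p was 11.0 CPM in NXT-Exo 5 against 6.00 CPM in the next library, a gap of 0.735. miR-299a-3p was 4.82 CPM in NXT-Exo 2 against 2.87 CPM in the next library, a gap of 0.785, with 16 reads in NXT-Exo 2 and 3 to 11 in the other NXT-Exo libraries.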

How the results depend on the processing

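No paired analysis was possible because 1 replicate number alone occurs in both NXT-Exo and Ctl-Exo. The number of cluster miRNAs called was 0 under each of the 9 alternatives to the fit, where the smallest adjusted p of a member ranged from 0.514 (without replicate 4) to 0.937 (without replicate 5). Without replicate 2 the median log2 difference of the 17 members was 0.51, against 0.02 over all 464 miRNAs of that fit. The count of members higher in NXT-Exo (15 of 17) was 9 to 15 without 1 NXT-Exo library. It was lowest without replicate 5 (9 of 14, against 51.8% of all miRNAs), where fewer members had the depth. The 4 members 2-fold apart became 0 with a pseudocount of 10. They became 2 of 17 with a mean of at least 10 reads, where 30 of all 467 miRNAs were this far apart. With no condition on the range there were 11 (10 higher, 1 lower), and 13 of the 40 members had 0 reads in Ctl-Exo 5. Without 1 NXT-Exo library there were 4 to 7, most without replicate 4. Apart from the depth of 10 reads, the share over all miRNAs was not taken for these alternatives. The summed cluster level (log2 difference 0.44) ranged from 0.35 to 0.50. Ctl-Exo 5 was below all NXT-Exo libraries for 5 to 7 of the 17 members, against 21.0% to 28.1% of the 467. Of 185 values of single miRNAs, 7 changed sign, in 6 miRNAs. One was miR-485-5p, from 0.21 to -0.056 without replicate 4 on the log2(CPM + 1) scale. Without 1 NXT-Exo library the log2 difference ranged from -0.0047 (without replicate 3) to 0.22 for miR-323-3p, and from -0.22 (without replicate 5; -0.18 without replicate 3) to 0.38 for miR-382-3p. The lowest value came without replicate 5 for miR-382-5p (-0.024 to 0.45), miR-409a-3p (-0.019 to 0.35) and miR-411-5p (-0.19 to 0.31). miR-434-5p (-1.81 on the log2(CPM + 1) scale) was -0.60 with a pseudocount of 10, and miR-485-3p (1.66) was 0.40 with 10 and 2.62 with 0.1. The cause was not tested. Depth limits the 23 members below 10 reads most.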
